A study of Homo sapiens with 20 samples.

Results

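Lactobacillus salivarius Ls-33 is a probiotic lactic acid bacterium, and the comparison described here asks which genes of a human intestinal epithelial line changed when live Ls-33 bacteria were kept on the cells for 8 h. The treated arrays were those labelled as Ls-33 co-culture and the controls those labelled as medium only, both at 8 h, so that the comparison rests on 4 of the 20 arrays of the series. It covers 11865 genes, those whose mean signal reached the 40th percentile of the 19775 genes with a named probe set. All cells were Caco-2, a human colon carcinoma line that acquires features of small intestinal enterocytes, differentiated on inserts over 5 days. Bacteria were grown in MRS broth, washed, and given on the apical side in differentiation medium at 20 to 100 bacteria per Caco-2 cell, without antibiotics, and the controls had that medium with no bacteria. Other groups used for reference were 8 h co-cultures with Lactobacillus acidophilus NCFM and with Bifidobacterium lactis 420, and a 24 h exposure to 10% cell-free supernatant of Ls-33, each with 2 arrays. The test also drew on 24 h exposures to 10% cell-free supernatant of NCFM and of B. lactis 420, with 2 arrays each. They entered the expression filter and the estimate of the spread, and are not compared here. All of these arrays were prepared from 5 µg of total RNA. The model is a single carcinoma line without immune or stromal cells, and the series states that these samples were analysed in duplicate. Nothing in the labels says that the 2 arrays of a group came from separate cultures, so p-values measure the spread between arrays, which may be technical.

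Enterocytes sense bacteria through pattern receptors that activate the transcription factor NF-kB. This factor induces chemokines, adhesion molecules and its own inhibitors. Interferon and STAT3 signalling can add antiviral, antigen-presenting and acute-phase genes. Mature enterocytes are otherwise occupied with digestion and transport, and express sugar, amino acid and bile acid carriers, brush border enzymes and the machinery that packs dietary fat into lipoproteins. The results are ordered in that way, from defence genes to absorptive genes and then to stress, growth and junction genes.

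The cells matched their label. Of 15 epithelial and enterocyte markers, 14 lay above the floor in all 4 arrays, the floor being the 40th percentile (2.74 on the log2 scale of RMA signal). EPCAM, an epithelial adhesion protein, stood at 13.10 and 13.0 in medium and 13.20 and 13.19 with Ls-33. The log2 of the summed signal of these markers was 15.87 to 15.91 in medium and 15.94 to 15.95 with Ls-33. Of 12 measured leukocyte markers, 5 were above the floor in all 4 arrays, with a summed level of 9.10 to 9.26 in medium and 8.63 to 8.71 with Ls-33, and PTPRC and CD3E, which define leukocytes and T cells, lay below it. Among them CD3D was lower with Ls-33, at 8.32 and 8.25 in medium and 6.44 and 6.67 with Ls-33. Of 7 endothelial markers 2 were above the floor, and VWF and CDH5 were below it. Of 9 fibroblast markers 6 were above it, summing to 12.08 to 12.17 in medium and 12.34 to 12.41 with Ls-33, with DCN below the floor. The summed level of 16 goblet, Paneth and endocrine markers was 11.66 to 11.68 in medium and 10.66 to 10.71 with Ls-33. Most of it came from ZG16, a secreted lectin, while MUC2, CHGA and DEFA5 lay below the floor. The beta-actin control probe sets differed between the 3' and 5' ends by 0.84 ± 0.054 (SD, n = 2) in medium and by 1.24 ± 0.020 (SD, n = 2) with Ls-33, on the log2 scale, and the part of this difference in the results below was not tested. The same measure was 1.40 ± 0.20 (SD, n = 2) with NCFM and 1.18 ± 0.13 (SD, n = 2) with B. lactis 420. In such bulk samples, fewer cells of a type and less RNA per cell cannot be told apart.

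Live Ls-33 changed many genes. Across all genes, 2301 were called higher (19.4% of those tested) and 2290 lower (19.3%) at an adjusted p under 0.05, and the median change of all genes was -0.01 on the log2 scale. The list counts below are to be read beside these shares. The mean used as filter took in the Ls-33 arrays, so genes low in medium could enter any list through them. The shares and medians of the lists are therefore no independent support. Most calls were small, with 2574 of the 4591 under 1.5-fold. A change of at least 2-fold was seen in 254 genes that rose and 316 that fell, and one of at least 8-fold in 12 and 11. Because 8271 genes had groups of arrays that did not overlap, separation of the 2 and 2 arrays alone was common. The 2 Ls-33 arrays correlated at r = 0.9964 across genes and the 2 medium arrays at 0.9957, and an Ls-33 array correlated with a medium array at 0.9880 to 0.9881. Genes are not independent replicates in these correlations. Of the 276 genes named here as called against medium, 34 lost the call when 1 of the 4 arrays was left out, with adjusted p-values of 0.0501 to 0.462 at most. These were CYP3A5, NQO1, RIPK2, SOCS3, CCNE1, CDKN1A, DEFB1, EPCAM, IL1A, LYZ, NSD1, PCNA, PER2, SOCS1, DDIT3, GSDMB, HSPA4L, IL1R1, LGR5, RIGI, SRSF3, TFF2, TJP1, ALPI, AQP11, CLDN23, CLK4, DBP, DUSP10, EBI3, IRF1, MUC6, ORC6 and SLC39A8. Each gene was read from 1 probe set, and 149 of the called named genes had others above the floor. In 66 of them another probe set did not pass, in 6 another was called the other way, and in 73 another gave a change over 1.5-fold apart, while 55 showed none of these. Changes in other probe sets are given on the log2 scale against medium.

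**Figure D1:**
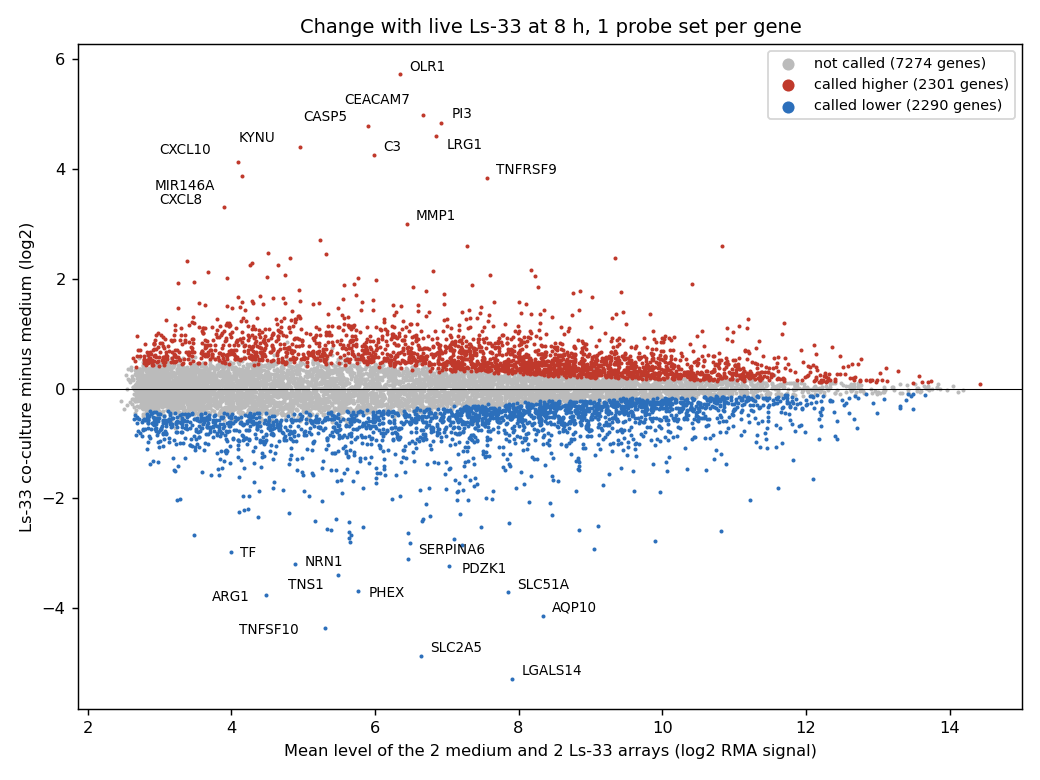
Change with live Ls-33 (Ls-33 co-culture minus medium, log2, vertical axis) against the mean level of the 4 arrays (log2 RMA signal, horizontal axis), 1 point per gene tested, with the 12 largest rises and 12 largest falls named. Calls at an adjusted p under 0.05 are coloured; 2301 genes were higher and 2290 lower, and OLR1 and LGALS14 lay farthest from 0.

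The 12 largest rises among called genes were OLR1, CEACAM7, PI3, CASP5, LRG1, KYNU, C3, CXCL10, MIR146A, TNFRSF9, CXCL8 and MMP1. RefSeq promoter windows on GRCh38.p14, read here over the 250 bases before the start of transcription, were matched for 7 of these genes, and for genes with several starts the first listed was taken. The windows shown first are those that held a kappaB-type motif, 3 of the 7. The motif searched was GGANNTTCC on either strand, a loose form of the NF-kB binding site. It occurred in the windows of CXCL10, CXCL8 and TNFRSF9, and is set in capitals in the 3 sequences that follow, each written 5′ to 3′ on the gene's strand.
CXCL10 (chr4:76023498-76023747, minus strand): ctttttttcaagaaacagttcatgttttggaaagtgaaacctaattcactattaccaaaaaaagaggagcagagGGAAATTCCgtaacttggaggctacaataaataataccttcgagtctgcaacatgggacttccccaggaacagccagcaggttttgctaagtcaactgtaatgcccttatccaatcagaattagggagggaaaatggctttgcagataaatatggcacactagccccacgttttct
CXCL8 (chr4:73740319-73740568, plus strand): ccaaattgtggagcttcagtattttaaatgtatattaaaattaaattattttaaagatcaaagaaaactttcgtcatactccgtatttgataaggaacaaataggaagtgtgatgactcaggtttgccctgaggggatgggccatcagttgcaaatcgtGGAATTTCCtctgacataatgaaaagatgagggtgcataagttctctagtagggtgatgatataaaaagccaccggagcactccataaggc
TNFRSF9 (chr1:7940840-7941089, minus strand): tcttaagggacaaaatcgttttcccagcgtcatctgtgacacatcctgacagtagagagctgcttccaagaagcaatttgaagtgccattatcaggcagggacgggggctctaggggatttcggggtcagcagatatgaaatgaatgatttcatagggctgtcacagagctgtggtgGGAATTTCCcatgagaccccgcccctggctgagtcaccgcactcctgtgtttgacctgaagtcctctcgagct
The motif began 176 bases before the start in CXCL10, 91 bases before it in CXCL8 and 73 bases before it in TNFRSF9. Of 9696 tested genes with a window, 3.88% held it. Among the 23 genes with a window that were called at least 4-fold higher, 26.1% held it, namely CXCL10, CXCL8, TNFRSF9, TNFAIP3, OAS3 and PARP9. Among genes called at least 2-fold higher the share was 7.18%, and among those at least 2-fold lower 4.38%. A second motif, GAAANNGAAA on either strand, is a loose form of the interferon-stimulated response element. It was held by 2.29% of tested genes, 9.74% of those at least 2-fold higher and 1.99% of those at least 2-fold lower. CASP5 is shown for it, with 2 overlapping matches at the far end of the window in capitals.
CASP5 (chr11:105023169-105023418, minus strand): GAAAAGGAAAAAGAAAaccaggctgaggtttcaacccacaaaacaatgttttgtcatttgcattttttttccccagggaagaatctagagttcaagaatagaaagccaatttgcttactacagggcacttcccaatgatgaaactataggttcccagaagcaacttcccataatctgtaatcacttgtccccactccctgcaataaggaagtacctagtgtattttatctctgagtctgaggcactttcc
CXCL10 held this motif as well, 221 bases before its start, outside the kappaB-type match. Another motif, TTCNNNGAA, a loose STAT site that reads the same on both strands, was found in 5.32% of tested genes and in 10.8% of those at least 2-fold higher, and in 4.38% of those at least 2-fold lower. Among the 23 genes with a window called at least 4-fold higher, 21.7% held the STAT motif and 17.4% the interferon motif. Of the 7 windows of the largest rises, 4 held the STAT motif, 3 the kappaB-type motif and 2 the interferon motif. Matches of this kind describe the letters of the windows and do not show that a factor was bound.

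MIR146A is the gene of a microRNA that represses adaptors of the Toll-like receptor pathway. Its mature product is printed with the seed, bases 2 to 8, in capitals.
hsa-miR-146a-5p (chr5:160485372-160485393, plus strand, GRCh38.p14): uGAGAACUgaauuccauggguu
Which transcript of this locus the array read was not tested, and its values are not levels of the mature microRNA. MIR146A stood at 2.28 and 2.14 in medium and 6.08 and 6.08 with Ls-33, a rise of 14.6-fold, log2 change 3.87, SE 0.17, adjusted p = 6.7e-13. Both medium arrays were below the floor, where a level is not well measured, and taken from the floor the rise was 10.1-fold. Its level was 4.14 and 3.82 under NCFM and 8.24 and 8.32 under B. lactis 420, so that Ls-33 lay above the former and below the latter (differences 2.10 and -2.20, adjusted p = 3.2e-08 and 1.1e-07).

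The gene with the largest rise was OLR1, the lectin-like receptor for oxidised LDL, a scavenger receptor that NF-kB is known to induce. Its level was 3.45 and 3.53 in medium and 9.15 and 9.28 with Ls-33, a change of 52.9-fold, log2 change 5.73, SE 0.16, adjusted p = 1.3e-15. The arrays were tightly grouped and lay far apart. The level was 4.60 and 4.66 under NCFM and 7.81 and 7.81 under B. lactis 420. Of 10 scavenger and lipoprotein receptors tested, 2 rose (20%) and 3 fell (30%). The other rise was LRP8, an apolipoprotein E receptor (log2 change 1.54, adjusted p = 2.0e-06), and the falls were CXCL16, LRP1 and SCARB1. For LRP8 other probe sets gave 0.69 past the threshold and 0.56 without passing, and for SCARB1 -0.74 past the threshold and -0.47 and 0.16 without passing.

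CXCL10, CXCL8 and CCL20 rose. Of 19 chemokine genes with a probe set, only 6 had a mean above the floor and were tested. Of these 6, 3 rose (50%, against 19.4% of all genes), 1 fell (16.7%, against 19.3%) and 2 did not pass. Their median change was 1.51 on the log2 scale, against -0.01 for all genes. The filter mean took in the Ls-33 arrays, so a gene low in medium could enter through them. The share and the median are therefore no independent support. CXCL10, which attracts activated T cells, stood at 1.98 and 2.09 in medium and 6.31 and 6.03 with Ls-33 (17.5-fold, log2 change 4.13, SE 0.16, adjusted p = 1.3e-13), with both medium arrays below the floor and a rise of 10.7-fold taken from it. CXCL8, the neutrophil chemokine interleukin 8, stood at 1.75 and 2.75 in medium and 5.61 and 5.49 with Ls-33 (9.84-fold, log2 change 3.30, SE 0.25, adjusted p = 2.8e-09). The medium arrays of CXCL8 differed from each other more than its Ls-33 arrays did. CCL20, which attracts dendritic cells and lymphocytes to the epithelium, was already abundant at 9.53 and 9.52 and reached 12.08 and 12.16 (6.05-fold, log2 change 2.60, SE 0.07, adjusted p = 1.2e-15). CXCL16, a transmembrane chemokine that is also a scavenger receptor, fell from 6.67 and 6.32 to 5.10 and 5.37 (2.4-fold, log2 change -1.26, SE 0.19, adjusted p = 3.7e-05). CXCL1, another neutrophil chemokine, had a mean below the floor and was not tested, at 2.60 and 2.25 and 2.55 and 2.75. For CXCL8 other probe sets gave 4.70.

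Genes of the NF-kB pathway rose in 13 of 21 cases (61.9%, against 19.4% of all genes), and NFKBIA, its classical inhibitor, did not pass. The list covers subunits, kinases and feedback genes, and its other 8 members did not pass, with a median change of 0.50. TNFAIP3, the ubiquitin-editing enzyme A20 that shuts the pathway off, went from 6.67 and 6.46 to 8.63 and 8.65 (4.2-fold, log2 change 2.07, SE 0.13, adjusted p = 1.8e-10). IKBKE, an inducible kinase of the pathway, went from 2.42 and 2.60 to 4.30 and 4.58 (3.82-fold, log2 change 1.93, SE 0.17, adjusted p = 3.7e-08), with both medium arrays below the floor and a rise of 3.25-fold when taken from the floor. NFKBIZ, a nuclear inhibitor-like cofactor, rose by 1.76, NFKB2, which encodes the p100 precursor, by 1.51 and RELB, its partner, by 0.83 on the log2 scale. Other members did not pass. RELA, the p65 subunit, read 7.08 and 7.23 and 7.32 and 7.36, with an adjusted p of 0.25. NFKB1 read 2.85 and 2.83 and 2.80 and 3.28, with an adjusted p of 0.4. NFKBIA, the inhibitor IkB alpha, read 8.5 and 8.48 in medium and 8.40 and 8.51 with Ls-33, with a change of -0.04 (SE 0.09, adjusted p = 0.78). For TNFAIP3 other probe sets gave 2.94.

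Of 20 cytokine genes tested, 5 rose (25%), 2 fell (10%) and 13 did not pass, so that the share of rises was near that of all genes. Without Ls-33 replicate 2, 3 rose. IL32, an intracellular cytokine of epithelial cells, went from 9.51 and 9.41 to 11.35 and 11.38 (3.76-fold, log2 change 1.91, SE 0.07, adjusted p = 1.3e-13). IL1RAP and IL1R1, subunits of the interleukin 1 receptor, rose by 0.85 and 0.57, while IL1R2, its decoy, fell by 0.96, and IL22RA1, which receives interleukin 22, fell by 1.29. IL1A rose by 0.53 (adjusted p = 0.041). IL1B read 2.98 and 3.20 in medium and 3.28 and 3.52 with Ls-33, and IL18 9.07 and 8.98 and 9.23 and 9.11, neither past the threshold. The levels of TNF and IL6 were below the floor in all 4 arrays. Of 17 microbe receptors and adaptors, 5 rose (29.4%), 1 fell (5.88%) and 11 did not pass. The rises were 2 without medium replicate 2 or Ls-33 replicate 1, and 3 without Ls-33 replicate 2. IRAK2, a kinase of Toll-like receptor signalling, rose by 1.29, the RNA sensors IFIH1 and RIGI by 0.99 and 0.64, and RIPK2, the kinase behind NOD receptors, by 0.56. PGLYRP2, which cleaves peptidoglycan, fell by 1.34, with both Ls-33 arrays below the floor and a fall of 1.88-fold taken to it. The receptors themselves were low. TLR2, TLR4 and NOD2 had means below the floor, and NOD1 and the adaptor MYD88 did not pass, at -0.25 and 0.22. For IL1RAP other probe sets gave 0.15 without passing, for RIGI 0.23 and 0.21, all without passing, and for RIPK2 0.37 without passing.

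CASP5 and CASP4, both inflammatory caspases, were among the genes that rose at least 4-fold. Of 15 caspase and pyroptosis genes tested, 7 rose (46.7%, against 19.4% of all genes), 2 fell (13.3%, against 19.3%) and 6 did not pass, with a median change of 0.36. CASP5, which with CASP4 senses intracellular lipopolysaccharide, stood at 3.78 and 3.25 in medium and 8.33 and 8.26 with Ls-33 (27.4-fold, log2 change 4.78, SE 0.20, adjusted p = 4.3e-13). CASP4 went from 6.09 and 5.88 to 8.76 and 8.39 (6.03-fold, log2 change 2.59, SE 0.19, adjusted p = 1.5e-09). CARD16, a decoy of the caspase 1 domain, went from 3.48 and 3.76 to 5.83 and 6.18 (5.22-fold, log2 change 2.38, SE 0.30, adjusted p = 3.9e-06). CASP10, an initiator caspase of death receptors, went from 3.03 and 3.25 to 5.24 and 5.61 (4.87-fold, log2 change 2.28, SE 0.21, adjusted p = 3.9e-08). GSDMB, a gasdermin, rose by 0.67, and GSDMD, the pore protein cut by these caspases, read 3.23 and 3.34 and 2.98 and 3.48 and did not pass. CASP1 read 2.26 and 2.38 and 3.66 and 3.29 and was not tested because its mean was below the floor. CASP5, CASP4, CASP1 and CARD16 lie in 1 family of similar sequence, and cross-hybridisation between them was not tested. For CASP4 other probe sets gave 0.48, for CASP10 0.25 without passing, and for GSDMB -0.44 and -0.31, all without passing.

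Of 18 genes of the TNF and TNF receptor families, 5 rose (27.8%) and 4 fell (22.2%), near the shares of all genes. Without medium replicate 2 or Ls-33 replicate 2, 3 rose. TNFRSF9, the costimulatory receptor 4-1BB, rose from 5.56 and 5.73 to 9.39 and 9.58 (14.3-fold, log2 change 3.84, SE 0.16, adjusted p = 3.8e-13), while its ligand TNFSF9 fell by 0.92. TNFSF10, the death ligand TRAIL, fell from 7.44 and 7.54 to 3.31 and 2.94 (20.6-fold, log2 change -4.37, SE 0.20, adjusted p = 1.6e-12). TNFSF15, a T cell costimulator, fell by 1.72, and TNFRSF11A, the receptor RANK, rose by 0.97. Of 21 apoptosis regulators, 7 rose and 7 fell (33.3% each). Without medium replicate 2, 4 fell. The rises included the pro-apoptotic BID, PMAIP1 and BIK, at 1.59, 1.56 and 1.36, and the caspase 8 inhibitor CFLAR at 1.33. BCL2L1, which encodes the survival protein Bcl-xL, fell by 0.62, and MCL1 and BAX did not pass, at 0.04 and -0.28. For TNFRSF9 other probe sets gave 2.42 and 0.58, for TNFSF10 -2.94 and -3.31, for TNFSF15 -0.37 without passing, and for BID -0.16 without passing. For CFLAR other probe sets gave -0.14 to 1.44, 7 of 11 without passing, and for BCL2L1 -1.28 and -0.86 past the threshold and -0.29 without passing.

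**Figure D2:**
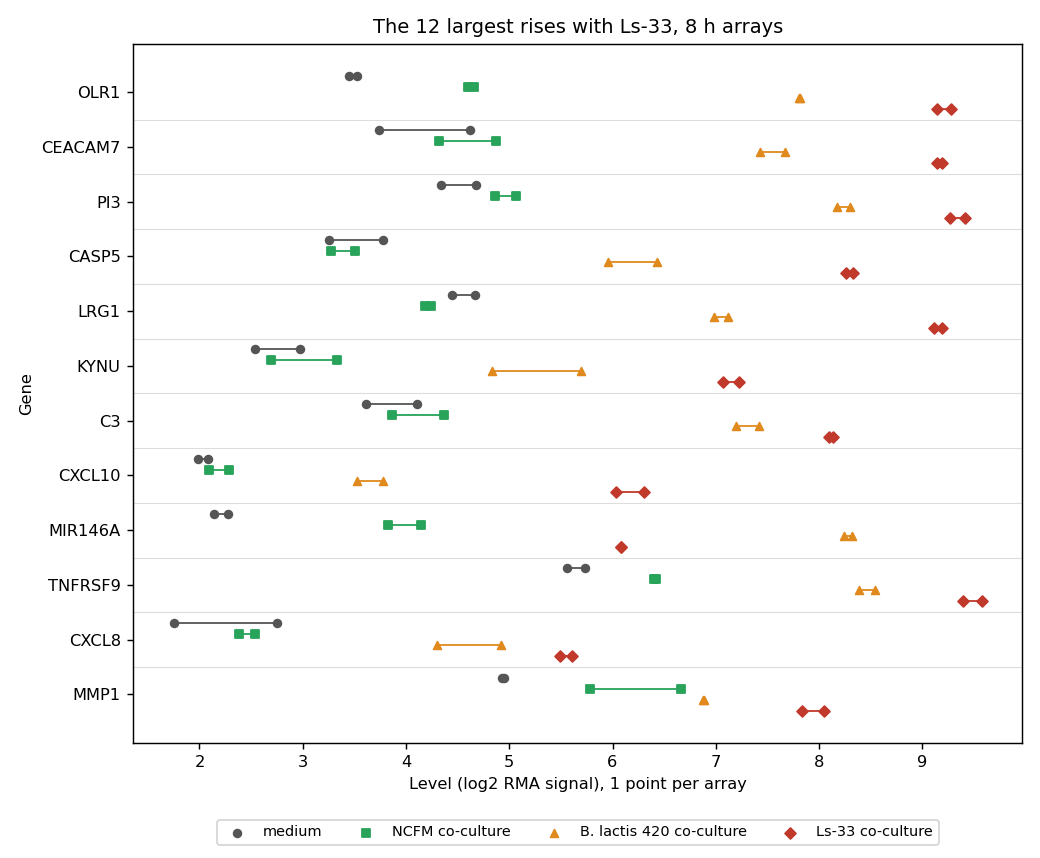
Levels (log2 RMA signal, horizontal axis) of the 12 genes with the largest rises (vertical axis) in each of the 8 arrays at 8 h, 1 point per array, a line joining the 2 arrays of a group. Genes were chosen among called genes with both Ls-33 arrays above both medium arrays, so this separation was set by the choice. OLR1 went from 3.45 and 3.53 in medium to 9.15 and 9.28 with Ls-33. In MIR146A the B. lactis 420 arrays lay above the Ls-33 arrays.

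Of 13 complement genes, 4 rose and 4 fell (30.8% each, against 19.4% and 19.3% of all genes). C3, the central component, stood at 3.61 and 4.11 in medium and 8.14 and 8.10 with Ls-33 (19.1-fold, log2 change 4.26, SE 0.21, adjusted p = 4.4e-12). CFB, the factor B of the alternative pathway, went from 8.78 and 8.74 to 10.08 and 10.22 (2.61-fold, log2 change 1.39, SE 0.08, adjusted p = 3.0e-11), and CD55, which protects host cells from complement, rose by 0.92. C4BPA and C4BPB, the chains of the C4b-binding inhibitor, fell by 0.79 and 0.83. Of 12 antimicrobial proteins, antiproteases and oxidases, 3 rose (25%) and 2 fell (16.7%), near the shares of all genes. PI3, the elastase inhibitor elafin, went from 4.68 and 4.34 to 9.27 and 9.41 (28.5-fold, log2 change 4.83, SE 0.18, adjusted p = 6.7e-14). NOX1, the epithelial NADPH oxidase, rose by 1.14 and LYZ, lysozyme, by 0.44, although a second LYZ probe set fell by 0.75 (adjusted p = 0.025). S100A9, a calprotectin subunit, and DEFB1, a constitutive defensin, fell by 1.19 and 0.54. The antiprotease SLPI and the oxidase DUOX2 did not pass, at 0.19 and 0.42, and LCN2 had a mean below the floor. For CFB other probe sets gave 0.35 without passing, for PI3 5.44, and for NOX1 2.33 and 1.55 past the threshold and 0.38 without passing.

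Plasma proteins, which differentiated Caco-2 cells make much as liver cells do, split into a few that rose and more that fell. Of 13 tested, 4 rose (30.8%) and 7 fell (53.8%), with a median change of -0.78. LRG1, a leucine-rich acute-phase glycoprotein, went from 4.44 and 4.66 to 9.11 and 9.19 (24.2-fold, log2 change 4.60, SE 0.19, adjusted p = 3.3e-13), and FGB, a fibrinogen chain, from 7.16 and 7.03 to 9.33 and 9.17 (4.46-fold, log2 change 2.16, SE 0.11, adjusted p = 1.0e-11). SERPINA3, the acute-phase antichymotrypsin, read 2.38 and 1.99 in medium and 3.97 and 4.48 with Ls-33, but its mean over the 14 arrays of the fit was below the floor, so it has no test. Among the falls, TF, transferrin, went from 5.55 and 5.41 to 2.41 and 2.61 (7.83-fold, log2 change -2.97, SE 0.17, adjusted p = 3.7e-11), with both Ls-33 arrays below the floor and a fall of 6.66-fold taken to it. ALB, albumin, went from 6.61 and 6.75 to 4.06 and 4.13 (5.99-fold, log2 change -2.58, SE 0.21, adjusted p = 6.6e-09), and AGT, angiotensinogen, from 12.21 and 12.26 to 10.21 and 10.21 (4.06-fold, log2 change -2.02, SE 0.05, adjusted p = 3.3e-16). SERPINA6, which carries cortisol, fell from 8.02 and 8.0 to 4.61 and 5.20 (8.62-fold, log2 change -3.11, SE 0.19, adjusted p = 1.1e-10) and SERPINA1, alpha-1 antitrypsin, by 1.07. For ALB other probe sets gave -0.82.

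Interferon-type genes rose more often than they fell, without a uniform response. Of 30 interferon-stimulated genes and interferon regulatory factors, 14 rose (46.7%) and 5 fell (16.7%), with a median change of 0.36. The falls were 3 without medium replicate 2 and without either Ls-33 array. OAS3, an antiviral oligoadenylate synthetase, went from 4.11 and 4.09 to 6.44 and 6.66 (5.47-fold, log2 change 2.45, SE 0.19, adjusted p = 4.6e-09). IFITM1 and IFITM2, membrane proteins that hinder viral entry and resemble each other in sequence, rose by 1.26 and 1.25. Both medium arrays of IFITM2 were below the floor, and its rise taken from the floor was 1.97-fold. IRF1, a transcription factor downstream of interferon gamma and NF-kB, rose by 0.79 and ISG15, a ubiquitin-like modifier, by 0.82. Against these, IFI27 fell from 5.60 and 6.20 to 4.18 and 4.53 (2.91-fold, log2 change -1.54, SE 0.22, adjusted p = 1.6e-05) and IFIT1, an RNA-binding antiviral protein, by 1.13. Of 18 JAK-STAT3 and SOCS genes, 7 rose (38.9%) and 3 fell (16.7%), with falls near the share of all genes. Without Ls-33 replicate 1, 4 rose. STAT3 itself went from 8.79 and 9.09 to 9.84 and 9.89 (1.9-fold, log2 change 0.93, SE 0.11, adjusted p = 1.7e-06). Among its inhibitors SOCS2, SOCS3 and SOCS4 rose by 1.03, 0.68 and 0.58, and SOCS1 fell by 0.59. The other 2 SOCS3 probe sets read 0.12 and -0.30 and did not pass. Of 19 genes of antigen presentation by MHC class I, 9 rose (47.4%) and 3 fell (15.8%). The peptide transporter subunits TAP1 and TAP2 rose by 1.16 and 0.95, the peptide trimmer ERAP2 by 0.88, the immunoproteasome subunit PSMB9 by 0.62, and B2M, the light chain, by 0.59. HLA-B did not pass, at -0.03, and its probe set may also read other class I genes. The chaperone CALR fell by 0.60, but 2 other probe sets of it, of a design that may read other transcripts, rose by 0.85 and 1.08. For STAT3 other probe sets gave 1.31 and 0.93 past the threshold and 0.38 without passing, for SOCS4 -0.11 without passing, for SOCS1 -0.15 without passing, and for TAP2 0.21 without passing. For ERAP2 other probe sets gave 0.73 and 0.53 past the threshold and 0.59 without passing, and for B2M 0.52 past the threshold and 0.38 without passing.

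Adhesion molecules rose more often than they fell. Of 21 tested, 10 rose (47.6%) and 5 fell (23.8%), with falls near the share of all genes. The falls numbered 3 without medium replicate 2 or Ls-33 replicate 1. CEACAM7, a colonic member of the carcinoembryonic antigen family, went from 4.62 and 3.74 to 9.15 and 9.19 (31.8-fold, log2 change 4.99, SE 0.28, adjusted p = 2.9e-11), and CEACAM5, the carcinoembryonic antigen itself, from 8.27 and 8.03 to 10.56 and 10.50 (5.19-fold, log2 change 2.38, SE 0.09, adjusted p = 6.7e-14). CEACAM1, a receptor for several pathogens, was high in both groups, at 11.17 and 11.19 and 11.05 and 11.12, and did not pass. ICAM1, to which leukocytes bind, went from 7.35 and 7.35 to 9.17 and 9.24 (3.62-fold, log2 change 1.86, SE 0.10, adjusted p = 3.0e-11). CD44, the hyaluronan receptor, went from 3.25 and 3.04 to 5.07 and 5.71 (4.74-fold, log2 change 2.24, SE 0.29, adjusted p = 4.7e-06). Its other probe sets above the floor gave changes of -0.13 to 0.75. ITGA5, a fibronectin receptor chain, fell from 9.43 and 9.47 to 8.12 and 8.16 (2.48-fold, log2 change -1.31, SE 0.08, adjusted p = 1.1e-10). For CEACAM7 other probe sets gave 4.94 and 3.93, and for ICAM1 1.75 and 1.10.

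Tryptophan and nicotinamide enzymes gave 4 rises and 4 falls among 15 tested (26.7% each). KYNU, kynureninase, which leads tryptophan breakdown toward NAD, went from 2.97 and 2.54 to 7.07 and 7.23 (21-fold, log2 change 4.39, SE 0.30, adjusted p = 7.7e-10). Its 3 other probe sets above the floor gave smaller changes, between 1.15 and 1.69. NNMT, which methylates nicotinamide, went from 3.94 and 3.83 to 6.37 and 6.83 (6.56-fold, log2 change 2.71, SE 0.22, adjusted p = 9.5e-09), and a second probe set gave 1.26. TDO2, which opens the tryptophan ring, rose by 2.04 and NAMPT, which recycles nicotinamide, by 1.18. HAAO, a later step of the pathway, fell by 1.13. IDO1, the interferon-induced enzyme for the first step, stayed below the floor at 2.44 and 2.20 and 2.42 and 2.30. MMP1, interstitial collagenase, went from 4.95 and 4.93 to 8.05 and 7.84 (8.01-fold, log2 change 3.0, SE 0.20, adjusted p = 4.7e-10). Of 23 proteases, inhibitors and matrix genes, 3 rose (13%) and 7 fell (30.4%). SERPINE2, an inhibitor of thrombin, rose by 1.0, and SERPINB9, SERPINB1 and the matrix protein CCN2 fell by 1.47, 0.81 and 1.08. Of 3 other SERPINB1 probe sets, 2 fell by 0.56 and 0.74 and 1 rose by 0.57 (adjusted p = 0.030). PLAUR, the urokinase receptor, did not pass, at 0.08.

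The largest fall among called genes was LGALS14, a galectin otherwise known from placenta, from 10.66 and 10.46 in medium to 5.41 and 5.14 with Ls-33 (38.9-fold, log2 change -5.28, SE 0.12, adjusted p = 9.5e-17). SLC2A5, the fructose transporter of the brush border, fell from 9.0 and 9.15 to 4.63 and 3.78 (29.1-fold, log2 change -4.86, SE 0.19, adjusted p = 1.5e-13). AQP10, an intestinal water and glycerol channel, fell from 10.40 and 10.42 to 6.47 and 6.09 (17.5-fold, log2 change -4.13, SE 0.11, adjusted p = 7.3e-16). In both carriers the Ls-33 arrays still lay above the floor. ARG1, arginase, fell from 6.42 and 6.30 to 2.64 and 2.56 (13.6-fold, log2 change -3.76, SE 0.18, adjusted p = 4.4e-12), with both Ls-33 arrays below the floor and a fall of 12.3-fold taken to it. PHEX, a peptidase linked to phosphate balance, fell from 7.61 and 7.60 to 3.95 and 3.87 (12.9-fold, log2 change -3.69, SE 0.15, adjusted p = 1.9e-13). TNS1, a focal adhesion protein, fell by 3.39 and NRN1, known as a neuronal growth protein, by 3.20. PDZK1, a scaffold that holds transporters in the apical membrane, fell from 8.75 and 8.55 to 5.49 and 5.35 (9.36-fold, log2 change -3.23, SE 0.11, adjusted p = 3.7e-14). For SLC2A5 other probe sets gave -5.16 and -1.38, for PHEX -2.37, and for TNS1 -1.31 and -1.63 past the threshold and -0.24 without passing.

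**Figure D3:**
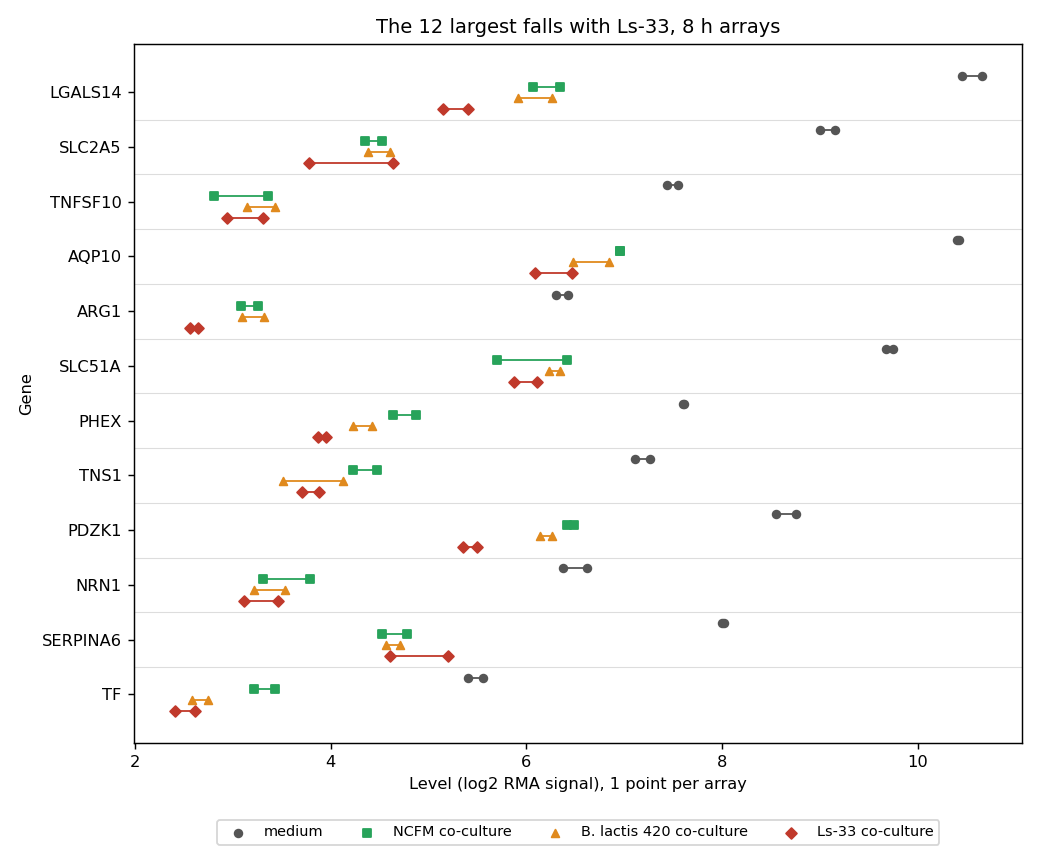
Levels (log2 RMA signal, horizontal axis) of the 12 genes with the largest falls (vertical axis) in each of the 8 arrays at 8 h, 1 point per array, a line joining the 2 arrays of a group. Genes were chosen among called genes with both Ls-33 arrays below both medium arrays, so this separation was set by the choice. LGALS14 went from 10.66 and 10.46 in medium to 5.41 and 5.14 with Ls-33, with the arrays of the other co-cultures also below medium.

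Of 19 genes of sugar uptake and metabolism, 2 rose (10.5%) and 9 fell (47.4%). PCK1, the gate of gluconeogenesis, fell from 10.15 and 10.11 to 7.60 and 7.52 (5.94-fold, log2 change -2.57, SE 0.07, adjusted p = 7.3e-16), LCT, lactase, by 0.91, and TXNIP, which restrains glucose uptake, by 0.84. Both Ls-33 arrays of LCT were below the floor, and its fall taken to the floor was 1.49-fold. SI, sucrase-isomaltase, went against the list and rose from 6.72 and 6.79 to 7.88 and 7.82 (2.14-fold, log2 change 1.10, SE 0.14, adjusted p = 3.7e-06). The glucose carriers SLC5A1 and SLC2A2 were below the floor. Of 25 amino acid and peptide transporters, 5 rose (20%) and 13 fell (52%), with rises near the share of all genes. SLC3A1 and SLC7A9, which form the cystine and dibasic amino acid carrier, fell by 2.50 and 2.24, from 10.35 and 10.37 to 7.93 and 7.80 and from 5.11 and 5.34 to 2.72 and 3.25. SLC36A1 fell by 1.22 and the peptide carrier SLC15A1 by 0.38, whereas the cystine-glutamate exchanger SLC7A11 and the neutral carrier SLC43A2 each rose by 1.13. SLC6A19 did not pass, at -0.44. For SLC3A1 other probe sets gave -0.73, for SLC15A1 -0.39 without passing, and for SLC43A2 0.39 without passing.

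Of 21 ion, phosphate and bicarbonate transporters, 4 rose (19%) and 8 fell (38.1%), with rises near the share of all genes. Without medium replicate 2, 4 fell. SLC26A3, the chloride-bicarbonate exchanger lost in congenital chloride diarrhoea, fell from 8.32 and 8.30 to 6.28 and 6.28 (4.07-fold, log2 change -2.03, SE 0.11, adjusted p = 3.9e-11), and TRPM6, the magnesium channel, from 5.43 and 5.13 to 3.19 and 2.95 (4.62-fold, log2 change -2.21, SE 0.19, adjusted p = 1.8e-08). Among the rises, CFTR, the apical chloride channel, went from 5.33 and 5.21 to 6.42 and 6.19 (2.05-fold, log2 change 1.04, SE 0.17, adjusted p = 6.3e-05), SLC12A2, the basolateral chloride loader, rose by 0.80, and the bicarbonate carrier SLC4A7 by 1.12. All 3 aquaporins tested fell, AQP11 by 0.48 and AQP3 by 0.45 besides AQP10. For TRPM6 other probe sets gave -2.34 past the threshold and -0.17 without passing, and for AQP3 -1.13 and -1.17.

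Genes of bile acid and lipid handling fell far more often than they rose. Of 13 genes of bile acid and sterol transport, 9 fell (69.2%) and 4 did not pass, with a median change of -0.86. SLC51A, which with SLC51B exports bile acids across the basolateral membrane, fell from 9.67 and 9.74 to 5.87 and 6.11 (13.1-fold, log2 change -3.71, SE 0.15, adjusted p = 3.3e-13), and SLC51B itself by 1.01. FABP6, the ileal bile acid binding protein, fell by 1.62, SLCO2B1, an organic anion carrier, by 1.21, and NPC1L1, the cholesterol importer, by 1.13. SLC10A2, the apical bile acid carrier, was below the floor. Of 24 genes of lipoprotein assembly and lipid absorption, 1 rose (4.17%) and 16 fell (66.7%), with a median change of -0.54. MTTP, which loads triglyceride onto apolipoprotein B, fell from 8.52 and 8.40 to 5.86 and 5.59 (6.65-fold, log2 change -2.73, SE 0.14, adjusted p = 5.9e-12). APOA4, the apolipoprotein of chylomicrons, fell from 12.11 and 12.11 to 9.59 and 9.45 (6.03-fold, log2 change -2.59, SE 0.06, adjusted p = 9.2e-17). CIDEC, a lipid droplet protein, APOM and APOC3 fell by 2.06, 1.87 and 1.64, and APOB by 1.09. The standard error was 0.06 for APOA4 and 0.05 for APOC3. It draws on all 7 groups of the fit, so it does not measure the agreement of the medium and Ls-33 arrays alone. For NPC1L1 other probe sets gave 0.18 without passing, for APOC3 -0.91, and for APOB -2.56.

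Of 22 genes of cholesterol synthesis and SREBP2 targets, 3 rose (13.6%) and 12 fell (54.5%), most by little. Without medium replicate 2, 7 fell. SREBF1, the lipogenic regulator, fell by 1.10, the sterol enzymes EBP and DHCR7 by 0.65 and 0.51, and INSIG2, which retains SREBP, by 0.55. IDI1, an early enzyme of the pathway, rose by 0.88, with 3 other IDI1 probe sets, of a design that may read other transcripts, between -0.18 and 0.028, and HMGCS1 read 9.91 and 9.84 and 9.93 and 9.85 without passing. Of 21 genes of fatty acid oxidation, ketone bodies and PPAR, 2 rose (9.52%) and 10 fell (47.6%). The receptor PPARA fell from 8.10 and 8.21 to 6.29 and 6.33 (3.59-fold, log2 change -1.84, SE 0.15, adjusted p = 7.1e-09) and its partner RXRA by 0.99. CPT1A, which brings fatty acids into mitochondria, rose by 0.42, and ANGPTL4, a target of PPAR, did not pass at -0.16. Of 20 intestinal transcription factors, 4 rose (20%) and 6 fell (30%), with rises near the share of all genes. NR1I3, the xenobiotic receptor CAR, fell from 6.50 and 6.23 to 3.92 and 3.99 (5.31-fold, log2 change -2.41, SE 0.19, adjusted p = 5.0e-09), ISX, which limits vitamin A uptake, by 1.58 and NR5A2, a regulator of bile acid genes, by 0.66. HES1, the Notch effector, rose by 0.83, and the lineage factors CDX2 and KLF5 did not pass, at 0.12 and 0.07. A second KLF5 probe set fell by 0.23 (adjusted p = 0.018). For SREBF1 other probe sets gave -0.095 without passing, for PPARA -1.72 to -0.46, 3 of 7 without passing, for RXRA -0.49 without passing, and for CPT1A 0.38, -0.42 and 0.35, all without passing. For NR5A2 other probe sets gave -0.77, -1.39 and -0.97.

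Of 17 brush border peptidases and structural genes, 2 rose (11.8%) and 10 fell (58.8%), with a median change of -0.43. MYO1A, the motor of microvilli, fell from 7.35 and 7.75 to 5.72 and 5.67 (3.62-fold, log2 change -1.86, SE 0.17, adjusted p = 4.3e-08), ANPEP, aminopeptidase N, from 7.11 and 6.55 to 5.66 and 5.18 (2.66-fold, log2 change -1.41, SE 0.24, adjusted p = 9.0e-05), and the microvillar cadherins CDHR2 and CDHR5 by 1.17 and 0.88. VIL1, villin, fell by 0.48, DPP4 by 0.68 and ALPI, intestinal alkaline phosphatase, by 0.52. KRT20, a keratin of differentiated enterocytes, rose by 0.76. Of 18 iron and heme genes, 4 rose (22.2%) and 6 fell (33.3%). SLC11A2, the apical iron importer, fell from 9.97 and 10.15 to 8.42 and 8.18 (3.4-fold, log2 change -1.76, SE 0.09, adjusted p = 1.3e-11), HEPH, the ferroxidase of iron export, by 0.77 and TFRC, the transferrin receptor, by 0.36. SLC40A1, the iron exporter, rose by 0.29, and HAMP did not pass at -0.25. Of 11 metallothionein and zinc genes, 3 rose (27.3%) and 4 fell (36.4%). The zinc importers SLC39A4 and SLC39A5 fell by 1.46 and 1.07 and the exporter SLC30A1 by 0.79, while SLC39A8 rose by 0.89. The metallothioneins differed, with MT2A up by 0.52, MT1F down by 0.63 and MT1X not passing at 0.04, and probe sets of this family may read more than 1 member. For VIL1 other probe sets gave -0.73 past the threshold and 0.04 and -0.004 without passing, for DPP4 -0.56 past the threshold and -0.092 without passing, for SLC11A2 -1.93 to -0.25, 1 of 4 without passing, and for TFRC -0.73 and -1.69 past the threshold and -0.33 without passing. For SLC39A8 other probe sets gave -0.25 without passing.

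Drug-metabolising genes changed in both directions. Of 23 genes of the aryl hydrocarbon receptor and drug metabolism, 6 rose (26.1%) and 9 fell (39.1%). The rises were 1 without medium replicate 2, 2 without Ls-33 replicate 1 and 3 without Ls-33 replicate 2. The sulfotransferases SULT1C2 and SULT2A1 fell by 1.58 and 1.11. CYP1A1, the classical target of the aryl hydrocarbon receptor, fell from 12.20 and 12.14 to 11.15 and 11.19 (2-fold, log2 change -1.0, SE 0.05, adjusted p = 1.9e-11), and CYP2S1, CYP27A1 and CYP3A5 by 0.93, 0.91 and 0.29. Of 3 other CYP3A5 probe sets, 2 gave -0.32 and 1 rose by 0.77 (adjusted p = 0.020). Of 14 prostaglandin and leukotriene genes, 3 rose (21.4%) and 5 fell (35.7%). The falls were 3 without medium replicate 2 or Ls-33 replicate 2. ALOX5, which opens leukotriene synthesis, rose by 1.42 and the inducible cyclooxygenase PTGS2 by 0.53, whereas PTGIS, prostacyclin synthase, fell by 1.14. PTGS1 and PTGES did not pass, at -0.38 and 0.28. For SULT1C2 other probe sets gave -0.18 without passing, and for PTGS2 0.37 without passing.

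**Figure D4:**
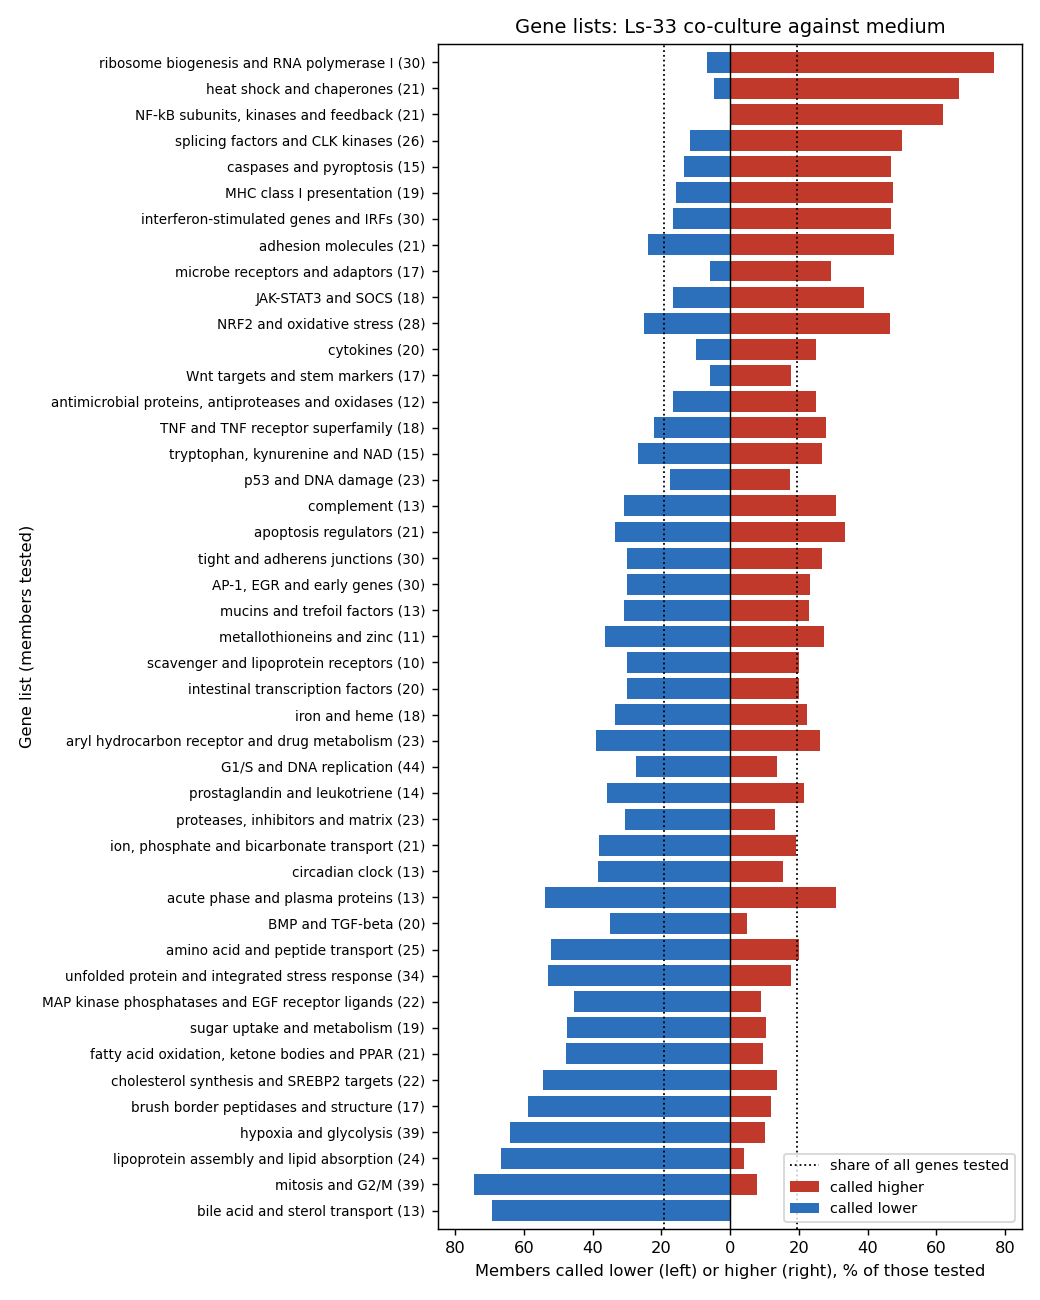
Share of the tested members of each gene list that was called higher (right, red) or lower (left, blue) with Ls-33, in percent, for lists with at least 10 members tested; the number tested is in brackets. Dotted lines mark the shares over all genes, 19.4% higher and 19.3% lower, and lists are ordered by the share higher minus the share lower, from ribosome biogenesis (23 of 30 higher) at the top to bile acid and sterol transport (9 of 13 lower) at the bottom. The mitosis and G2/M list had the largest share lower, 29 of 39.

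Of 21 heat shock and chaperone genes, 14 rose (66.7%) and 1 fell (4.76%), with a median change of 0.29. HSPH1, a large cytosolic chaperone, went from 8.03 and 8.22 to 9.56 and 9.56 (2.7-fold, log2 change 1.43, SE 0.10, adjusted p = 8.8e-10), and DNAJB4, CHORDC1, HSPA6 and HSPA4L rose by 0.96, 0.86, 0.89 and 0.72. DNAJB1 read 8.22 and 8.32 and 8.26 and 8.30. Of 28 genes of NRF2 and oxidative stress, 13 rose (46.4%) and 7 fell (25%). SOD2, the mitochondrial superoxide dismutase and also an NF-kB target, went from 7.93 and 7.83 to 9.82 and 9.43 (3.36-fold, log2 change 1.75, SE 0.13, adjusted p = 4.0e-09). GCLM, for glutathione synthesis, rose by 1.54 and GPX2, the intestinal glutathione peroxidase, by 1.20. NQO1, a quinone reductase, fell by 0.14 (adjusted p = 0.045), HMOX1 did not pass at 0.19, and AKR1C1, which has close relatives of similar sequence, fell by 1.40. For DNAJB4 other probe sets gave 0.43 without passing, for GPX2 2.07, for NQO1 -0.15 and -0.076, all without passing, and for AKR1C1 -1.91, -0.38 and -0.47.

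Hypoxia and endoplasmic reticulum genes were mostly lower. Of 39 genes of hypoxia and glycolysis, 4 rose (10.3%) and 25 fell (64.1%), with a median change of -0.24. NDRG1 fell from 11.56 and 11.59 to 10.21 and 10.21 (2.58-fold, log2 change -1.36, SE 0.06, adjusted p = 5.5e-13), the mitochondrial kinase AK4 by 1.0, the collagen hydroxylase P4HA1 by 0.91, the glycolytic enzymes GPI and LDHA by 0.90 and 0.36, and VEGFA by 0.35. PDK1 did not pass, at -0.15, and its 2 other probe sets disagreed, with changes of -1.02 (adjusted p = 0.0058) and 0.90 (adjusted p = 0.0020). Of 34 genes of the unfolded protein and integrated stress responses, 6 rose (17.6%, near the share of all genes) and 18 fell (52.9%), with a median change of -0.26. The rises were 3 without Ls-33 replicate 2. HERPUD1, of endoplasmic reticulum degradation, fell from 11.33 and 11.39 to 9.87 and 9.87 (2.81-fold, log2 change -1.49, SE 0.06, adjusted p = 1.5e-13), TRIB3 by 1.28, the transcription factors ATF4 and DDIT3 by 0.66 and 0.55, and the chaperone HSPA5 by 0.18. XBP1 rose by 0.68. The amino acid enzymes CBS and PHGDH fell by 1.34 and 1.10, and PSAT1, of the same serine pathway as PHGDH, rose by 0.83. For HERPUD1 other probe sets gave -0.03 without passing, for HSPA5 -0.94, for XBP1 0.18 without passing, and for PSAT1 0.015 without passing.

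Of 30 AP-1, EGR and early genes, 7 rose (23.3%) and 9 fell (30%), with rises near the share of all genes. EGR1, an immediate early transcription factor, fell from 12.54 and 12.49 to 10.73 and 10.69 (3.49-fold, log2 change -1.81, SE 0.06, adjusted p = 2.0e-14) and MAF from 8.60 and 8.68 to 5.93 and 5.64 (7.22-fold, log2 change -2.85, SE 0.12, adjusted p = 6.3e-13). JUN and BHLHE40 rose by 0.94 and 0.82, IER2 fell by 0.88, and FOS and ATF3 did not pass, at -0.29 and 0.25. Of 22 MAP kinase phosphatases and EGF receptor genes, 2 rose (9.09%) and 10 fell (45.5%). SPRY1, DUSP9, DUSP1 and DUSP6, all induced feedback inhibitors of MAP kinases, fell by 1.27, 0.94, 0.76 and 0.54, and ERBB2 by 0.80. DUSP10 rose by 0.80, and HBEGF did not pass at 0.01. Of 20 BMP and TGF-beta genes, 1 rose (5%) and 7 fell (35%). BMP4 and its target ID2 fell by 1.10 and 1.09, ID1 by 0.30, and TGFBR1 rose by 0.47. Of 17 Wnt targets and stem markers, 3 rose (17.6%) and 1 fell (5.88%). DKK1, a Wnt inhibitor, rose by 0.96 and LGR5, a stem cell marker, by 0.89, and AXIN2 and MYC did not pass, at 0.20 and -0.09. For MAF other probe sets gave -2.28 and -1.99, for JUN 0.87 and 0.95 past the threshold and 0.33 without passing, for SPRY1 0.24 without passing, and for DUSP1 -0.82 past the threshold and -0.19 without passing. For DUSP6 other probe sets gave -0.84 and -1.46.

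Mitotic genes fell broadly. Of 39 mitosis and G2/M genes, 3 rose (7.69%) and 29 fell (74.4%), with a median change of -0.58. CDC25C, the phosphatase that starts mitosis, fell from 5.17 and 5.10 to 3.52 and 3.89 (2.7-fold, log2 change -1.43, SE 0.19, adjusted p = 5.3e-06), CENPE, a kinetochore motor, from 5.25 and 4.90 to 3.98 and 3.71 (2.36-fold, log2 change -1.24, SE 0.23, adjusted p = 0.00032), and CCNB2 and MKI67 by 1.02 and 0.95. CCNB1, CDK1 and PLK1 fell by 0.70, 0.40 and 0.99. Of 44 G1/S and replication genes, 6 rose (13.6%) and 12 fell (27.3%). The rises were 3 without medium replicate 2 or Ls-33 replicate 2. GINS2, of the replicative helicase, fell by 0.83, CCND1 by 0.79 and PRIM1, primase, by 0.62, whereas CCNE1, ORC6 and PCNA rose by 0.54, 0.69 and 0.17. MCM2 did not pass, at -0.36. Of 23 p53 and DNA damage genes, 4 rose and 4 fell (17.4% each), near the shares of all genes. TIGAR, a p53-induced sugar phosphatase, rose from 8.05 and 8.03 to 9.19 and 9.12 (2.16-fold, log2 change 1.11, SE 0.08, adjusted p = 3.5e-09), CDKN1A, the inhibitor p21, fell by 0.33, and MDM2 and GADD45A did not pass, at 0.12 and -0.0022. Of 13 circadian genes, 2 rose (15.4%) and 5 fell (38.5%). CRY1 was up by 0.88, TEF and DBP down by 0.88 and 0.71, PER2 down by 0.56 and BMAL1 at -0.10 without passing. Without Ls-33 replicate 1, 3 circadian genes fell. For CDC25C other probe sets gave -0.29 without passing, for CCNB2 0.099 without passing, for MKI67 -0.88 past the threshold and -0.21 and -0.28 without passing, and for CDK1 -0.61 and -0.57 past the threshold and -0.25 without passing. For DBP other probe sets gave 0.18 without passing.

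Genes that build ribosomes had the largest share of rises among the lists with at least 10 members tested. Of 30 genes of ribosome biogenesis and RNA polymerase I, 23 rose (76.7%) and 2 fell (6.67%), with a median change of 0.51. RRP12, of subunit export, went from 3.56 and 3.55 to 5.33 and 5.16 (3.22-fold, log2 change 1.69, SE 0.17, adjusted p = 1.8e-07), UTP15, of the small subunit processome, from 5.03 and 5.03 to 6.63 and 6.59 (2.99-fold, log2 change 1.58, SE 0.28, adjusted p = 0.00017), and TAF1D, of the polymerase I promoter complex, from 6.87 and 6.87 to 8.26 and 8.63 (2.99-fold, log2 change 1.58, SE 0.13, adjusted p = 1.5e-08). NOC3L, UTP20 and POLR1B rose by 1.29, 1.10 and 0.85, and FBL, the nucleolar methyltransferase fibrillarin, fell by 0.29. Of 26 splicing factors and CLK kinases, 13 rose (50%) and 3 fell (11.5%). RSRP1, an arginine and serine rich protein, went from 7.24 and 7.15 to 9.33 and 9.17 (4.17-fold, log2 change 2.06, SE 0.10, adjusted p = 2.3e-12), and LUC7L3, RBM25, CLK1 and CLK4 rose by 1.11, 0.94, 0.86 and 0.59. SRSF3 fell by 0.17. Of 6 snoRNA host genes, SNHG19 rose by 1.97, EPB41L4A-AS1 and ZFAS1 fell by 0.78 and 0.33, and GAS5 did not pass at 0.24. Of 3 other ZFAS1 probe sets, 2 fell by 0.25 and 0.35 and 1 rose by 1.42 (adjusted p = 7.8e-06). For RRP12 other probe sets gave 0.66 past the threshold and 0.30 without passing, for UTP15 0.43, for POLR1B 0.75 and 0.64 past the threshold and 0.39 without passing, and for LUC7L3 -0.20 to 1.34, 2 of 5 without passing. For RBM25 other probe sets gave 0.23 to 1.27, 2 of 6 without passing, for CLK4 0.47 and 0.12, all without passing, for SRSF3 -0.36 to 0.15, 4 of 5 without passing, and for EPB41L4A-AS1 -0.10 without passing.

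Junction and mucus genes were mixed. Of 30 tight and adherens junction genes, 8 rose (26.7%) and 9 fell (30%), with a median change of -0.01. Without medium replicate 1, 5 rose. TJP1, the scaffold ZO-1, rose from 11.20 and 11.34 to 11.43 and 11.49 (1.14-fold, log2 change 0.19, SE 0.05, adjusted p = 0.0061), and OCLN, occludin, fell from 11.56 and 11.55 to 11.38 and 11.32 (1.15-fold, log2 change -0.21, SE 0.05, adjusted p = 0.0013), both by small steps. CLDN1, CLDN12 and CLDN23 rose by 0.46, 0.82 and 0.49, CLDN2 was below the floor, and CDH1, E-cadherin, did not pass at 0.04, while a second CDH1 probe set fell by 0.31 (adjusted p = 0.0064). MYLK, the myosin light chain kinase that opens junctions, fell from 8.17 and 8.14 to 5.90 and 6.36 (4.07-fold, log2 change -2.02, SE 0.17, adjusted p = 2.1e-08), and CGN, cingulin, by 0.65. Of 13 mucins and trefoil factors, 3 rose (23.1%) and 4 fell (30.8%), with rises near the share of all genes. TFF1, a mucosal repair peptide, went from 9.10 and 9.19 to 10.58 and 10.44 (2.57-fold, log2 change 1.36, SE 0.08, adjusted p = 5.9e-11) and the membrane mucin MUC13 rose by 0.61. ZG16 fell from 11.36 and 11.37 to 10.07 and 10.10 (2.42-fold, log2 change -1.28, SE 0.05, adjusted p = 2.8e-13), MUC6 and TFF2 fell by 0.72 and 0.60, and TFF3 did not pass at -0.10. The structural keratins KRT8 and KRT18 rose by 0.40 and 0.38. For TJP1 other probe sets gave -0.10 without passing, and for OCLN -0.14, -0.20 and -0.18, all without passing.

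Direct contrasts with the other live strains asked which levels differed between Ls-33 and NCFM or B. lactis 420. These contrasts share the Ls-33 arrays with the comparison against medium. Against NCFM, 965 genes were higher with Ls-33 (8.13% of those tested) and 777 lower (6.55%), and with all arrays quantile-normalized together this split was 782 and 1120. Against B. lactis 420, 342 were higher (2.88%) and 320 lower (2.70%). These counts rested on single arrays more than those against medium. Without Ls-33 replicate 1 they were 567 and 396 against NCFM and 104 and 72 against B. lactis 420, and without Ls-33 replicate 2 they were 604 and 422, and 146 and 119. Against B. lactis 420 they were 108 and 77 without its replicate 1, and 151 were lower without its replicate 2. Of the 21 NF-kB genes, 8 were higher than with NCFM and 2 were lower than with B. lactis 420. TNFAIP3 was one of these 2, at 9.20 and 9.49 with B. lactis 420 against 8.63 and 8.65 with Ls-33 (difference -0.71, adjusted p = 0.0028), and NFKBIA the other, at 9.21 and 9.17 against 8.40 and 8.51 (difference -0.73, adjusted p = 3.9e-05). CCL20 read 9.67 and 9.46 under NCFM and 12.24 and 12.35 under B. lactis 420, where its difference from Ls-33 did not pass (adjusted p = 0.2). Of the 30 interferon-type genes, 14 were higher with Ls-33 than with NCFM and 5 higher than with B. lactis 420. Of the 21 adhesion genes, 8 were higher in each contrast. Counts of other lists follow, against NCFM first and B. lactis 420 second. Of the 44 G1/S and replication genes, 10 and 9 were lower with Ls-33, and 3 and 0 higher. Of the 26 splicing genes, 9 and 7 were lower, and 1 and 0 higher. Of the 39 mitosis and G2/M genes, 11 and 4 were lower, and 0 higher in both. Of the 30 ribosome biogenesis genes, 6 and 2 were higher, and 2 and 0 lower.

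Among genes called against medium and against both other strains in the same direction, 206 were higher (1.74% of those tested) and 121 lower (1.02%). The 2 counts were 73 and 31 without Ls-33 replicate 1, 92 and 59 without Ls-33 replicate 2, and 75 and 38 without B. lactis 420 replicate 1, and 59 were lower without B. lactis 420 replicate 2. By the smallest of the 3 differences, the leading rises were CXCL10, NNMT, CASP5, LRG1, CD44, KYNU, CEACAM7, OLR1, CARD16 and ICAM1. CXCL10 read 2.09 and 2.28 under NCFM and 3.53 and 3.78 under B. lactis 420, so that Ls-33 was 15.8-fold and 5.72-fold higher (adjusted p = 5.8e-13 and 2.0e-08). Both NCFM arrays of CXCL10 were below the floor, so the fold against NCFM is not well measured. NNMT read 3.61 and 3.68 under NCFM and 4.39 and 4.49 under B. lactis 420, and Ls-33 was 7.73-fold and 4.47-fold higher (adjusted p = 1.4e-08 and 6.3e-06). CASP5 read 3.27 and 3.51 and 6.43 and 5.96, with Ls-33 30-fold and 4.3-fold higher (adjusted p = 6.9e-13 and 2.1e-06). LRG1 read 4.24 and 4.18 and 7.12 and 6.98, with Ls-33 30.7-fold and 4.3-fold higher (adjusted p = 3.3e-13 and 1.2e-06). In these 4 genes the B. lactis 420 arrays lay between medium and Ls-33, and in NNMT and CXCL10 they were nearer to medium. CD44 read 3.23 and 3.34 and 3.15 and 3.80, with differences of 2.10 and 1.91 (adjusted p = 5.0e-05 and 0.00061). CEACAM5, CASP4, IL32, FGB, CFB and TFF1 were also higher with Ls-33 than with either other strain, by 1.16, 1.36, 0.80, 1.15, 1.16 and 1.0 against B. lactis 420 on the log2 scale.

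The falls by the same rule were smaller. Against medium the 121 lower genes had a median change of -0.72, against NCFM -0.45 and against B. lactis 420 -0.41. The leading ones were MST1, MAOA, GINS2, DDB2, LGALS14, PDZK1, NSD1, RAB37, COL27A1 and NHERF4. Both Ls-33 arrays of NSD1 were below the floor, and its fall against medium taken to the floor was 1.56-fold. MST1, macrophage stimulating protein, went from 7.52 and 7.82 in medium to 5.96 and 5.75 with Ls-33, and read 6.82 and 6.85 under NCFM and 6.84 and 6.77 under B. lactis 420. MAOA, monoamine oxidase A, went from 6.56 and 6.63 to 5.07 and 5.41, and read 6.93 and 6.35 and 5.90 and 6.27 with the other strains, but 2 other MAOA probe sets changed against medium by 0.015 and -0.46 and did not pass. NHERF4 and PDZK1, scaffolds of apical transporters, differed from NCFM by -0.96 and -1.03 and from B. lactis 420 by -0.71 and -0.78. GINS2, with 7.16 and 7.40 under NCFM and 7.02 and 7.37 under B. lactis 420, was near its medium level in both, and so was DDB2, a DNA damage recognition protein (4.29 and 4.35 and 4.59 and 4.12). For SLC2A5, TNFSF10, SLC51A, NRN1 and SERPINA6 no difference from either strain passed. The differences of Ls-33 from NCFM and from B. lactis 420 were -0.22 and -0.28 for SLC2A5 (SE 0.19) and 0.04 and -0.16 for TNFSF10 (SE 0.20). For COL27A1 other probe sets gave -0.56 and -0.12, all without passing.

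Changes in opposite directions were seen against NCFM in 13 genes that were higher with Ls-33 and lower with NCFM than in medium, both by at least 1.5-fold. ICAM1 was the clearest, at 7.35 and 7.35 in medium, 6.0 and 6.05 with NCFM, 7.80 and 7.87 with B. lactis 420 and 9.17 and 9.24 with Ls-33, a difference of 3.18 from NCFM (SE 0.10, adjusted p = 5.3e-14). CFB read 8.78 and 8.74 in medium and 8.17 and 8.10 with NCFM, a difference of 2.02 from NCFM (adjusted p = 3.3e-13). The group also held CXCL17, a mucosal chemokine, EBI3, a cytokine subunit, SOCS3, the antiviral synthetase OAS1, and TIFA, an adaptor of NF-kB signalling. The remaining members were VNN1, a pantetheinase, RNF183, a ubiquitin ligase, the keratin KRT23, CLIC5, ADTRP and the antisense transcript DSG2-AS1. For VNN1 other probe sets gave 0.11 without passing, for CLIC5 -0.0057 without passing, and for ADTRP -0.023 without passing.

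**Figure D5:**
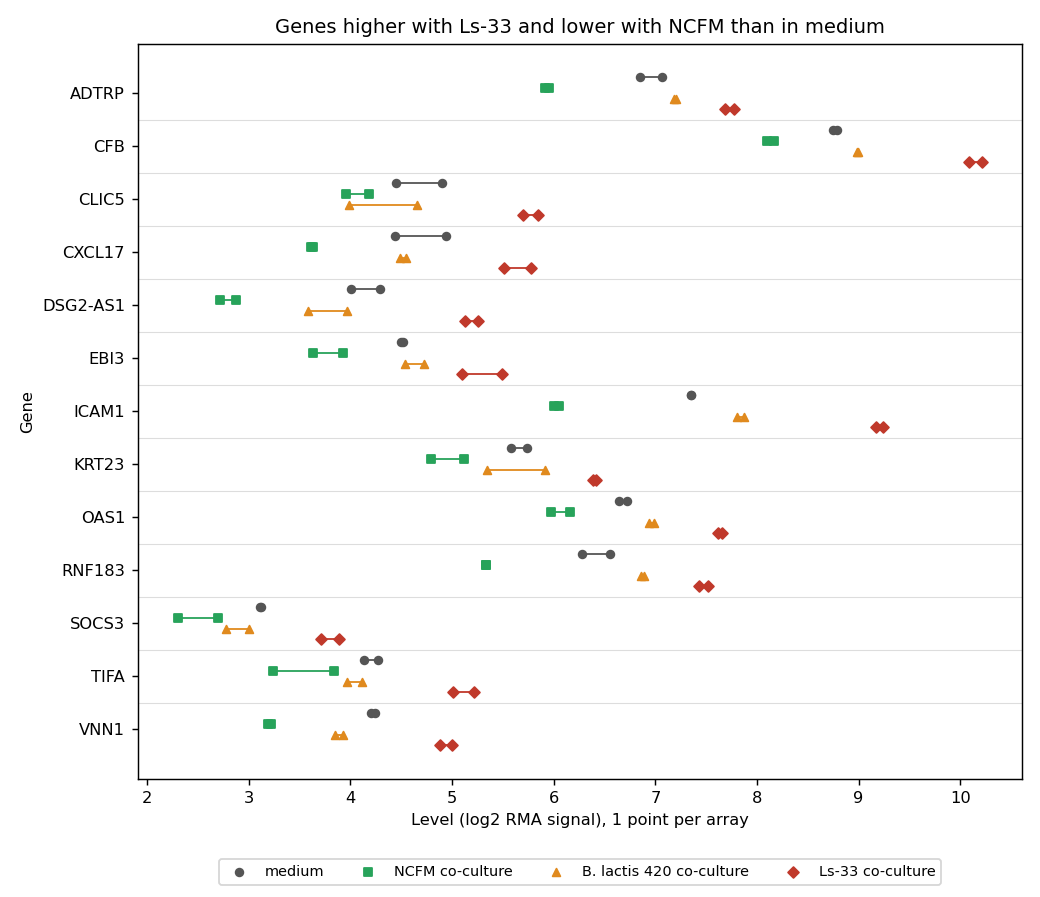
Levels (log2 RMA signal, horizontal axis) of the 13 genes that were higher with Ls-33 and lower with NCFM than in medium (vertical axis), in each of the 8 arrays at 8 h, 1 point per array, a line joining the 2 arrays of a group. ICAM1 read 7.35 in both medium arrays, and the B. lactis 420 arrays lie below the Ls-33 arrays in each gene.

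Cell-free supernatant of Ls-33 was given for 24 h, so its levels are set side by side with the co-culture without a test. For the 12 largest rises the supernatant arrays differed from 8 h medium by 0.01 (MIR146A) to 2.35 (MMP1), with a median of 0.77, where the co-culture differed by 3.00 to 5.73, with a median of 4.33. For the 12 largest falls the supernatant differed by -1.62 (TF) to 0.72 (SLC51A), with a median of -0.10, and the co-culture by -5.28 to -2.97, with a median of -3.70. OLR1 read 4.13 and 4.48 with supernatant, CXCL10 2.08 and 2.22, TNFRSF9 7.46 and 7.58, SLC2A5 9.24 and 9.48 and LGALS14 10.44 and 10.31. Format and time differ together between these groups and cannot be told apart. The rises and falls were also chosen by their size in the co-culture, a choice that favours smaller differences in any other group. Both differences use the same 2 medium arrays.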

How the data were processed

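RNA from Caco-2 cells was hybridised to Affymetrix arrays, and each deposited file column holds log2 signals that, per the submitters' processing notes, the authors computed by RMA. Its version is not given in the sources used here, and neither is the set of arrays it was run on. Of 54675 probe sets, 41091 carried 1 gene symbol, 1801 several and 11721 none, and 62 were controls. Symbols came from the platform annotation and were updated through the RefSeq table of GRCh38.p14, and 54 probe sets kept the annotated symbol. Each of 19775 genes was read from 1 probe set, the one with the highest mean over the 20 arrays, without those ending in _x_at where others existed. Genes were tested if their mean over the fit reached the 40th percentile.

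Groups came from the labels. The test was limma 3.58.1 in R 4.3.3 (lmFit, and eBayes with a trend) on 14 arrays in 7 groups of 2. These were 8 h medium and the co-culture and supernatant groups of Ls-33, NCFM and B. lactis 420. They share 1 estimate of the spread with 7 residual degrees of freedom. Adjusted p-values are limma's, with Benjamini-Hochberg adjustment over all 11865 genes, and the threshold was 0.05. The procedure was tested on simulated data. Folds are 2 to the power of the log2 difference. The number of arrays limits the precision.

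Named genes were the 12 largest rises and falls against medium, up to 5 called members of each of 53 lists with core members whatever their values, the 10 leading genes per direction in all 3 contrasts, and genes that moved in opposite directions with another strain by at least 1.5-fold. The largest rises and falls were taken among called genes whose Ls-33 arrays both lay on 1 side of both medium arrays. The lists held 1358 genes, 1240 with a named probe set. Members and lists were chosen with earlier results of these data known. Alternatives were the filter, the trend, the samples in the fit, joint quantile normalization, other probe sets, a replicate block and leaving out 1 array.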

Additional observations from a re-analysis of the deposited data

Results flagged for a closer look

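Against NCFM, 13 genes were higher with Ls-33 and lower with NCFM than in medium, both called and both at least 1.5-fold, and the direct contrast of the 2 strains was called in each. Ls-33 minus NCFM is given on the log2 scale. ICAM1 showed the largest difference, 3.18, and DSG2-AS1 followed with 2.39. RNF183 differed by 2.14, CXCL17 by 2.02 and CFB by 2.02. ADTRP differed by 1.79, VNN1 by 1.74 and CLIC5 by 1.70. TIFA differed by 1.58, OAS1 by 1.57 and EBI3 by 1.51. KRT23 differed by 1.45 and SOCS3 by 1.30. Against medium, other probe sets did not pass for ADTRP (-0.023), CFB (0.35), CLIC5 (-0.0057), VNN1 (0.11) and SOCS3 (0.12 and -0.30). Those of ICAM1 (1.75 and 1.10) and OAS1 (1.04) did pass. SOCS3 and EBI3 are among the genes listed above that lost the call against medium without 1 array. Both strains were set against the same 2 medium arrays. The direct difference of the strains does not use the medium levels, but its spread was estimated over all 14 arrays of the fit. Its adjusted p-values in limma ran from 5.3e-14 for ICAM1 to 0.00068 for SOCS3. The beta-actin 3' to 5' difference was 0.84 in medium, 1.24 with Ls-33 and 1.40 with NCFM (log2), and its part in these results was not tested.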

How the results depend on the processing

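The alternatives were changes of 1 step at a time. Against medium, the counts of genes called stayed within 1.5 times under each alternative except testing every probe set on its own, which gave 3813 higher and 3690 lower, and 2337 higher against NCFM, with more features tested by construction. Leaving out 1 array gave against medium 1649 to 1804 higher and 1758 to 1860 lower, against NCFM 567 to 830 higher and 396 to 685 lower, against B. lactis 420 104 to 261 higher and 72 to 151 lower, and in all 3 contrasts 73 to 235 higher and 31 to 140 lower. Without a filter, the genes lower than with B. lactis 420 numbered 205 and those lower in all 3 contrasts 74. Without the trend in eBayes the counts against B. lactis 420 were 129 higher and 116 lower, and in all 3 contrasts 89 and 42. With all 20 arrays in 1 fit they were 196 and 174, and 129 and 69. With only the arrays compared, 486 genes were lower than with NCFM, and with only the 8 h arrays 65 were lower in all 3 contrasts. The cause was not tested.

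The replicate numbers of the titles did not pair the arrays: the correlation of replicate differences between Ls-33 and medium was 0.031, and over 21 pairs of groups it ran from -0.10 to 0.057. With the replicate number as a block, 2252 genes were higher and 2267 lower than in medium, and of the named genes 1 lost its call, NQO1, at -0.14 (adjusted p = 0.053 in limma).

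Among 5282 recomputed values of 315 named genes, 4881 kept direction and side of the threshold, 362 were weaker, 6 stronger and 33 reversed, all 33 in other probe sets of the gene. Of the weaker ones, 215 came from leaving out 1 array, which assumes that the lone array varies like the other groups, and 72 from other probe sets. The reversed values of Ls-33 minus medium were ADTRP -0.023, BID -0.16, CALR 0.85 and 1.08, CCNB2 0.099, CD44 -0.13, CDH1 -0.31, CFLAR -0.14, CLIC5 -0.0057, CPT1A -0.42, CYP3A5 0.77, DBP 0.18, GSDMB -0.44 and -0.31, IDI1 -0.13 and -0.18, KLF5 -0.23, LUC7L3 -0.205, LYZ -0.75, MAOA 0.015, NPC1L1 0.18, PDK1 0.90, SCARB1 0.16, SERPINB1 0.57, SLC39A8 -0.25, SOCS3 -0.30, SOCS4 -0.11, SPRY1 0.24, SRSF3 0.072 and 0.15, TJP1 -0.10, VIL1 0.0401 and ZFAS1 1.42. Of 1122 recomputed list counts, 1016 stayed within 1.5 times. The filter at the 60th percentile, which tests fewer genes, moved several defence lists. Rises went from 13 to 8 among NF-kB genes, from 14 to 7 among interferon-type genes and from 9 to 5 among MHC class I genes. They went from 7 to 4 among caspase genes and from 3 to 1 among chemokines. With this filter falls went from 5 to 3 among interferon-type genes and from 2 to 1 among caspase genes. Falls among cholesterol genes went from 12 to 7 and among ion transporters from 8 to 4 without medium replicate 2, rises among JAK-STAT3 genes from 7 to 4 without Ls-33 replicate 1, and rises among junction genes from 8 to 5 without medium replicate 1. Precision is limited by 2 arrays per group, and genes with a mean below the floor were not tested.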
